A study of Homo sapiens with 9 samples.

Results

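The genes described here are 10 markers of monocytes and macrophages, LYZ, CD14, CSF1R, CD68, CD163, C1QA, C1QB, C1QC, TYROBP and CYBA, out of 18132 genes measured. They were chosen by name, and all of their 17 probe sets with 1 gene symbol were taken, each on its own. They were read in RNA of LAN-1, an established human neuroblastoma cell line, after the cells had been spiked into tumor-free bone marrow, separated with the mononuclear cells on a density gradient (Lymphoprep) and recovered with magnetic beads through the GD2 ganglioside on their surface. There were 3 conditions with 3 arrays each. In the condition labelled frozen with gradient, the mononuclear cells were frozen in DMSO, stored at low temperature, thawed and passed over an additional density gradient before the GD2 enrichment. In the condition labelled frozen without gradient, they were treated alike but enriched directly after thawing. In the fresh condition, the cells were enriched without freezing. Which frozen arrays had the additional gradient was taken from the sample titles alone. The titles and the study's own text may not assign the frozen conditions alike. Against fresh, the study reports many more altered genes with the additional gradient than without it. By the titles the order was the reverse: with the most variable probe set per gene, 448 genes passed without gradient and 16 with it. Which assignment is right could not be settled from the values. An exchange of these labels would exchange with and without gradient in every statement that follows. All conditions therefore share the spiking into marrow, the initial gradient and the GD2 enrichment, LAN-1 is the only tumor line, and the array reads LAN-1 cells together with whatever marrow cells passed the enrichment.

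Monocytes leave the bone marrow for the blood and become macrophages in tissues, and the marrow also holds resident macrophages that surround maturing red cells and take up debris. CD14 presents bacterial lipopolysaccharide to its receptor, CSF1R is the receptor for the growth factor on which most macrophages depend, and CD163 takes up hemoglobin bound to haptoglobin. C1QA, C1QB and C1QC encode the 3 chains of C1q, the recognition protein of the classical complement pathway, which macrophages secrete. TYROBP (DAP12) is a signalling adaptor of receptors on myeloid and natural killer cells, CD68 is a lysosomal glycoprotein, LYZ is the secreted enzyme lysozyme, and CYBA is the small chain of the membrane part of the phagocyte NADPH oxidase. CD68 and CYBA are also transcribed in many cells other than phagocytes.

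The data are log2 signals of probe sets after robust multi-array averaging (RMA), so a difference of 1 is a doubling of signal. Levels of different probe sets are not compared with each other, except with the array's background probe sets. Differences between conditions were tested with limma over 44988 probe sets and 9 arrays. A probe set is said to rise or fall where the unadjusted p was under 0.05 and the log2 fold change was over 1 in size. No probe set of any gene reached an adjusted p under 0.05 in any of the 3 comparisons. An unadjusted p under 0.05 was reached by 6117 probe sets (13.6%) between frozen without gradient and fresh, by 2132 (4.74%) between frozen with gradient and fresh, and by 8518 (18.9%) between frozen with and without gradient. The replicates are described as biological, but arrays with the same number are not said to share a marrow, and with 3 arrays per condition their number limits the precision.

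The arrays differed in quality. The 3' minus 5' difference of the GAPDH control probe sets, which is larger where labelled RNA falls short of the 5' ends, was 2.07 to 6.73 in the arrays frozen with gradient, 0.94 to 1.45 in those frozen without gradient and 1.56 to 4.92 in the fresh arrays. The mean signal of the array's background probe sets with 15 to 20 G or C bases was 4.53 to 5.12, 4.44 to 4.52 and 4.48 to 4.57 in the same order. Replicate 1 of the arrays frozen with gradient had the highest value of both and the lowest median correlation with the other arrays, 0.928 across probe sets. The labelled cell type was present: the 25 probe sets of 10 measured neuroblastoma genes, among them MYCN, TH and DBH, averaged 8.93 to 9.23 in the arrays frozen with gradient, 9.21 to 10.04 in those frozen without gradient and 9.12 to 9.23 in the fresh arrays. Of these 25, 2 rose without gradient against fresh, where 1.38% of all probe sets rose. With against without gradient 4 fell, where 2.66% of all probe sets fell, and 0 passed with gradient against fresh.

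LYZ was the marker with the widest spread, and its values differed between the replicates within each condition. Its probe set 11715462_x_at had 6.94, 10.89 and 7.68 in replicates 1, 2 and 3 frozen with gradient, 5.84, 9.25 and 5.34 in those frozen without gradient, and 8.48, 8.65 and 6.49 in the fresh arrays. Replicate 2 was the highest of its condition in all 3 conditions, and all 3 conditions overlapped. By the variance of its most variable probe set over the 9 arrays, LYZ stood 30 of 18132 genes. Arrays frozen with gradient averaged 8.50 ± 2.10, those frozen without gradient 6.81 ± 2.13 and fresh ones 7.87 ± 1.20 (SD, n = 3 each).

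Against the arrays frozen without gradient, LYZ was higher with gradient in each of the 3 pairs of arrays with the same number, by 1.11, 1.64 and 2.34 on the log2 scale. The log2 fold change was 1.70 (standard error 1.26, adjusted p = 0.403 from limma) and did not pass the criterion. In this comparison the deviations of arrays with the same number correlated positively. With the replicate number as a block the standard error was 0.64 and LYZ passed (unadjusted p = 0.0297, adjusted p = 0.124 from limma). The block was fitted over the arrays of all conditions, so this result also assumes that the fresh arrays pair by number. With this block 0.0889% of all probe sets rose and passed the criterion in this comparison. Without the arrays of replicate 3 the blocked log2 fold change was 1.37 and no longer passed, and without those of replicate 1 or 2 it was 1.99 and 1.73 and passed. Without the block, it passed without replicate 2 of the arrays frozen without gradient, at 2.92. The other probe set, 11715461_at, had a log2 fold change of -0.04 (95% confidence interval -1.07 to 0.99). It read above the mean of the background probe sets only in replicate 2 of the frozen conditions, so it says little about this difference.

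That second probe set had 3.80, 5.18 and 3.64 in the arrays frozen with gradient, 3.79, 5.11 and 3.83 in those frozen without gradient, and 3.80, 3.86 and 3.86 in the fresh arrays. It was high in replicate 2 of both frozen conditions and level in the other 7 arrays, fresh replicate 2 among them. In those 7 arrays it read below the mean of the background probe sets, near the floor. The suffix x marks probe sets that Affymetrix regards as open to cross-hybridization, so that the probe sets of LYZ need not read the same transcripts. Against fresh arrays 11715462_x_at had log2 fold changes of 0.63 (95% confidence interval -2.24 to 3.50) with gradient and -1.07 (95% confidence interval -3.94 to 1.81) without it.

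**Figure D1:**
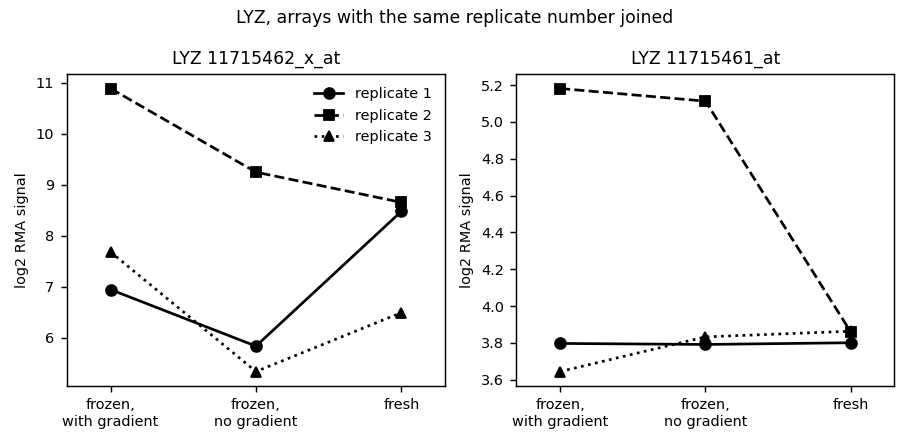
Log2 RMA signal of both LYZ probe sets (vertical axis) in arrays frozen with gradient, frozen without gradient and fresh (horizontal axis), with a line and a symbol for each replicate number. In 11715462_x_at replicate 2 lies above replicates 1 and 3 in every condition, and each line is higher with gradient than without, by 1.11 to 2.34.

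The genes whose most variable probe set followed LYZ most closely over the 9 arrays were SRGN (Pearson r = 0.946), FLRT1 (0.904), PLEK (0.903), TUBB1 (0.882) and DGKZ (0.882). SRGN encodes serglycin, a proteoglycan of the granules of blood cells, PLEK encodes pleckstrin of platelets and leukocytes, and TUBB1 is the beta tubulin of platelets. These 9 arrays share the replicate numbers and the quality values given above, so the correlations are descriptions. SRGN had 5.05, 7.24 and 5.81 in replicates 1, 2 and 3 frozen with gradient, 5.21, 6.38 and 4.56 in those frozen without gradient, and 5.94, 5.61 and 5.31 in the fresh arrays. Replicate 2 was thus the highest in both frozen conditions, as for the second LYZ probe set, but not in the fresh one. No other member was among the 5 genes nearest to LYZ. The 17 probe sets of platelets and megakaryocytes, TUBB1 among them, averaged 5.11 to 5.47 in the arrays frozen with gradient, 4.56 to 4.98 in those frozen without gradient and 4.65 to 5.21 in the fresh arrays, and their part in the values of LYZ was not tested.

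C1QB was the only member to fall. Its probe set 11719465_a_at had 5.51, 5.51 and 5.25 in the arrays frozen with gradient, 5.21, 5.17 and 4.94 in those frozen without gradient, and 5.91, 5.95 and 6.56 in the fresh arrays. All 6 frozen arrays lay below all 3 fresh arrays, and all 3 arrays without gradient lay below those with gradient. Frozen without gradient against fresh, the log2 fold change was -1.03 (standard error 0.19, 95% confidence interval -1.46 to -0.61, unadjusted p = 0.000426, adjusted p = 0.258 from limma). Frozen with gradient against fresh it was -0.71 (standard error 0.19, unadjusted p = 0.0044, adjusted p = 0.826 from limma), short of the criterion by its size. Both comparisons share the fresh arrays, and the difference of both frozen conditions was 0.32 (95% confidence interval -0.11 to 0.75).

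The fall lay close to the threshold in size, and fresh replicate 3 weighed on it. Without that array the log2 fold change was -0.82, without replicate 3 of the arrays frozen without gradient it was -0.95, and after cyclic loess normalization -0.99, each past the p threshold but not the fold. The other probe set of the gene, 11719466_s_at, ranged from 3.92 to 4.40 over the 9 arrays and had a log2 fold change of -0.19 (95% confidence interval -0.44 to 0.07) in the same comparison. Its arrays frozen without gradient also all lay below the fresh ones, but in every array it read below the mean of the background probe sets.

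CD163 had its highest and lowest values in the same conditions as C1QB. Its only probe set, 11728679_a_at, had 3.91, 3.77 and 3.67 in the arrays frozen with gradient, 3.33, 3.68 and 3.48 in those frozen without gradient, and 3.74, 4.0 and 4.39 in the fresh arrays. Fresh replicate 3 was the highest for both genes, and the arrays frozen without gradient lay below all fresh arrays in both. The log2 fold change of CD163 in that comparison was -0.55 (standard error 0.18, unadjusted p = 0.014, adjusted p = 0.27 from limma), too small for the criterion. Frozen with gradient against fresh it was -0.26 (95% confidence interval -0.67 to 0.14). In every array the signal of CD163 lay below the mean of the background probe sets, so its values are near the floor.

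The genes nearest to CD163 over the 9 arrays were IFI27 (Pearson r = 0.895), an interferon-induced gene, C1QB (0.883), HBB (0.868), the beta chain of hemoglobin, SELENOP (0.826), a secreted carrier of selenium, and CENPB (0.812), a centromere protein. IFI27 was also nearest to C1QB (0.883). Of the 45 pairs among the 10 members, read by their most variable probe sets, CD163 and C1QB had the third highest Pearson r, after CD68 with C1QA (0.951) and CSF1R with C1QC (0.896). C1QA and C1QC, the other chains of C1q, were not among the 5 genes nearest to C1QB, although C1QC, at most 5.01, was too dim for the floor of 6 set on such genes.

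**Figure D2:**
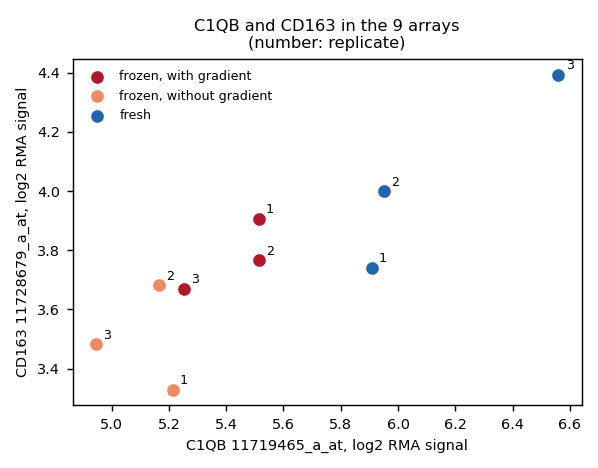
Log2 RMA signal of C1QB 11719465_a_at (horizontal axis) against that of CD163 11728679_a_at (vertical axis) in the 9 arrays, colored by condition and numbered by replicate. Fresh replicate 3 is highest for both genes (6.56 and 4.39), and the arrays frozen without gradient lie at the lower left.

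Some transcripts of red cells and granulocytes, cells that density separation and GD2 beads should largely discard, fell in the comparison in which C1QB did. Frozen without gradient against fresh, where 0.144% of all probe sets fell, 3 of 17 erythroid probe sets fell, all of them HBB (log2 fold changes of -3.97, -2.06 and -2.70), as did 7 of 27 probe sets of granulocytes and their precursors, among them the calcium-binding protein gene S100A8 (-3.43). None of either list rose. Frozen with gradient against fresh, the same 3 HBB probe sets fell (-2.09, -1.62 and -2.15) and 1 of MMP9, a matrix protease (-1.32), where 0.0267% of all probe sets did, while the median log2 fold change was -0.02 for the erythroid list and -0.03 for the granulocyte list. Probe sets of HBB with the suffix s or x may also read related globins. The erythroid list averaged 5.38 to 5.59 in the arrays frozen with gradient, 4.74 to 5.22 in those frozen without gradient and 5.62 to 5.87 in the fresh arrays. The granulocyte list averaged 4.14 to 4.68, 3.87 to 4.11 and 4.40 to 5.25 in the same order. Their part in the fall of C1QB was not tested. In these bulk samples fewer cells of a type and less RNA per cell cannot be told apart.

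CYBA had its highest mean in the arrays frozen without gradient, where C1QB and CD163 had their lowest. Its probe set 11743968_a_at had 7.57, 7.84 and 7.49 in the arrays frozen with gradient, 9.17, 8.54 and 7.86 in those frozen without gradient, and 8.07, 7.83 and 7.72 in the fresh arrays. The arrays without gradient lay above all those with gradient, and overlapped the fresh ones. Frozen with against without gradient, the log2 fold change was -0.89 (standard error 0.29, unadjusted p = 0.014, adjusted p = 0.254 from limma), short of the criterion by its size. Without replicate 3 of the arrays frozen without gradient it was -1.22 and passed. Frozen without gradient against fresh it was 0.65 (95% confidence interval -0.01 to 1.31).

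The genes nearest to CYBA were PRKCD (Pearson r = 0.967), a protein kinase C, BDNF (0.961), a neurotrophin, GAA (0.959), a lysosomal glucosidase, GADD45A (0.958), a gene induced by DNA damage, and STMN2 (0.956), a tubulin-binding protein of neurons and a member of the list of neuroblastoma genes. None of them is a monocyte marker on the lists used here. Of the other chains of the oxidase, CYBB, NCF4 and RAC2 also had no probe set past the criterion in any comparison. RAC1, a GTPase of many cell types, had 2 probe sets that fell with against without gradient, by 1.54 and 1.85 on the log2 scale.

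Sequence upstream of these genes is shown for C1QB, the member that fell, and CD163, the member with the highest Pearson r with it. It is also shown for CYBA, which had its highest mean where these had their lowest. CD163 passed the criterion in no comparison and its values are near the floor, so its choice is only descriptive. Each window runs from 250 bases before to 50 after the start of the gene in RefSeq (GRCh38.p14), 5′ to 3′ on the strand of the gene. Capitals mark GAGGAA, the core of the PU box bound by the myeloid factor PU.1, and GGGCGG, the GC box, on either strand.
C1QB (chr1:22652986-22653285, + strand): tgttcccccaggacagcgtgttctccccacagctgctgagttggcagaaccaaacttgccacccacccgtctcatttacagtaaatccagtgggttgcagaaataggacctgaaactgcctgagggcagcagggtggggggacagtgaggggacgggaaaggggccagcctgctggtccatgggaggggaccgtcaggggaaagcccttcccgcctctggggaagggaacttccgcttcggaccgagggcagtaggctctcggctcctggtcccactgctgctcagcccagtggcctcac
CD163 (chr12:7503728-7504027, - strand): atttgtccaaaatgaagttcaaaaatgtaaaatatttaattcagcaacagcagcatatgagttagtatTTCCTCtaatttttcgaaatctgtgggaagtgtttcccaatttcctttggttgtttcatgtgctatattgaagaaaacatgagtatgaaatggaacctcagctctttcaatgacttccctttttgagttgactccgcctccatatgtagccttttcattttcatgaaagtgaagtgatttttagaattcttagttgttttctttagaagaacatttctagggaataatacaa
CYBA (chr16:88651004-88651303, - strand): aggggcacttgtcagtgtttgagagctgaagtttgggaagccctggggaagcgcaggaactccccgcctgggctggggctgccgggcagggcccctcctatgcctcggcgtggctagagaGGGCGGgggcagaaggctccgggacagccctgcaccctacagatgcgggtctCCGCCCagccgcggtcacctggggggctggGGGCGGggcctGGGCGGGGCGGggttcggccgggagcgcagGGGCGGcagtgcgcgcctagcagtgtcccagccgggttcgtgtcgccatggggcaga
The CYBA window held 6 matches to the GC box, a pair of which share a base, and none to the PU box. CD163 held 1 PU box and no GC box, and C1QB held neither. Over 8 members with a window in the table, 5 had a PU box in at least 1 of their windows (CD14, CSF1R, CD68, CD163 and TYROBP) and 3 a GC box (CSF1R, C1QA and CYBA), with some genes having several windows. Counted by window, 5 of 10 held a PU box and 3 of 10 a GC box, where 27.9% and 45.0% of all 35116 windows hold them. No window printed holds both motifs. A match of letters is a description and not a binding site.

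CD68 and TYROBP had their lowest values in the arrays frozen without gradient. CD68 11729741_x_at had 6.57, 6.30 and 5.85 in the arrays frozen with gradient, 5.41, 5.42 and 5.57 in those frozen without gradient, and 6.30, 5.95 and 5.69 in the fresh arrays, so that all arrays without gradient lay below all others. Its log2 fold change was -0.51 against fresh (standard error 0.21, unadjusted p = 0.0383, adjusted p = 0.341 from limma), and 0.77 with against without gradient (standard error 0.21, unadjusted p = 0.0054, adjusted p = 0.254 from limma). Neither passed the fold of the criterion. The brighter probe set 11750359_x_at had 7.0, 6.03 and 5.86 in the arrays frozen with gradient, 5.81, 5.51 and 5.71 in those frozen without gradient, and 6.25, 5.93 and 5.85 in the fresh arrays. Its arrays without gradient again lay below all others, with log2 fold changes of -0.33 (95% confidence interval -0.97 to 0.30) against fresh and 0.62 (95% confidence interval -0.01 to 1.25) with against without gradient.

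TYROBP 11757635_a_at had 6.84, 6.22 and 5.71 in the arrays frozen with gradient, 5.71, 5.55 and 5.12 in those frozen without gradient, and 6.80, 5.80 and 5.58 in the fresh arrays. In each replicate number the array without gradient was the lowest of the 3. With against without gradient the log2 fold change was 0.80 (standard error 0.37, adjusted p = 0.271 from limma), and 0.17 was the standard error with the replicate number as a block (unadjusted p = 0.0017, adjusted p = 0.0793 from limma), still short of the fold. Without replicate 3 of the arrays frozen with gradient it was 1.07 and passed. The other probe set, 11723287_at, had 6.43, 6.58 and 5.87 in the arrays frozen with gradient, 5.97, 6.18 and 5.82 in those frozen without gradient, and 6.32, 5.99 and 6.01 in the fresh arrays. It overlapped between conditions, with 0.31 with against without gradient (95% confidence interval -0.15 to 0.76).

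The fits were repeated with a quality value of the arrays added to the model. Neither quality value overlapped between the frozen conditions, and the GAPDH difference did not overlap between frozen without gradient and fresh. Where they do not overlap, quality and condition cannot be told apart. With the 3' minus 5' difference of GAPDH added, TYROBP 11757635_a_at had a log2 fold change of 0.08 (standard error 0.25) with against without gradient. With the signal of the background probe sets added it was 0.12 (standard error 0.33). For CD68 11729741_x_at the same terms gave 0.39 and 0.42, against 0.77 without them. For the brighter CD68 11750359_x_at, 0.62 without them, the value was 0.07 with the GAPDH term and -0.0025 with the background term. With them C1QB 11719465_a_at had -1.11 and -1.02 in the arrays frozen without gradient against fresh, and CYBA had -0.97 and -1.0 with against without gradient. With against without gradient, C1QA went from 0.41 to 0.09 with the GAPDH term and 0.03 with the background term. CSF1R 11752273_a_at went from 0.31 to 0.05 and 0.03 in the same order. How far labelling or background account for the signals of TYROBP, CD68, C1QA and CSF1R was not tested further.

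The remaining receptors and chains showed little. CD14 11741519_s_at had 5.26, 5.11 and 4.23 in the arrays frozen with gradient, 5.09, 4.52 and 3.97 in those frozen without gradient, and 5.17, 4.52 and 4.30 in the fresh arrays. Replicate 3 was the lowest in every condition, and the conditions overlapped (log2 fold changes of -0.14 without gradient and 0.20 with gradient, both against fresh, and 0.34 between the frozen conditions). The dimmer CD14 probe set 11741520_x_at ranged from 3.61 to 4.63, with a log2 fold change of 0.42 with against without gradient (95% confidence interval 0.01 to 0.83, adjusted p = 0.263 from limma).

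CSF1R 11752273_a_at had 6.41, 5.82 and 5.93 in the arrays frozen with gradient, 5.77, 5.79 and 5.69 in those frozen without gradient, and 5.77, 5.71 and 5.64 in the fresh arrays. Its arrays with gradient lay above all others, by a log2 fold change of 0.35 against fresh (95% confidence interval -0.01 to 0.71). The other CSF1R probe sets ranged from 5.23 to 5.80 and from 3.37 to 3.93, and their conditions overlapped in all comparisons.

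C1QA had 6.62, 6.05 and 5.92 in the arrays frozen with gradient, 5.80, 5.69 and 5.86 in those frozen without gradient, and 6.15, 5.71 and 5.92 in the fresh arrays. C1QC had 5.01, 3.76 and 4.06 in the arrays frozen with gradient, 4.02, 4.02 and 4.03 in those frozen without gradient, and 4.10, 4.06 and 3.92 in the fresh arrays. For both, and for the brightest probe sets of CSF1R and CD68, the highest array was replicate 1 frozen with gradient, the array with the highest background. The genes nearest to C1QA over the 9 arrays included OR52R1 (Pearson r = 0.979) and OR1N1 (0.971), olfactory receptors. C1QA did not follow the fall of C1QB frozen without gradient against fresh (-0.14, 95% confidence interval -0.58 to 0.31). C1QC had -0.01 (95% confidence interval -0.63 to 0.62) in that comparison. In every array C1QC read below the mean of the background probe sets, so its probe set could hardly show a fall.

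**Figure D3:**
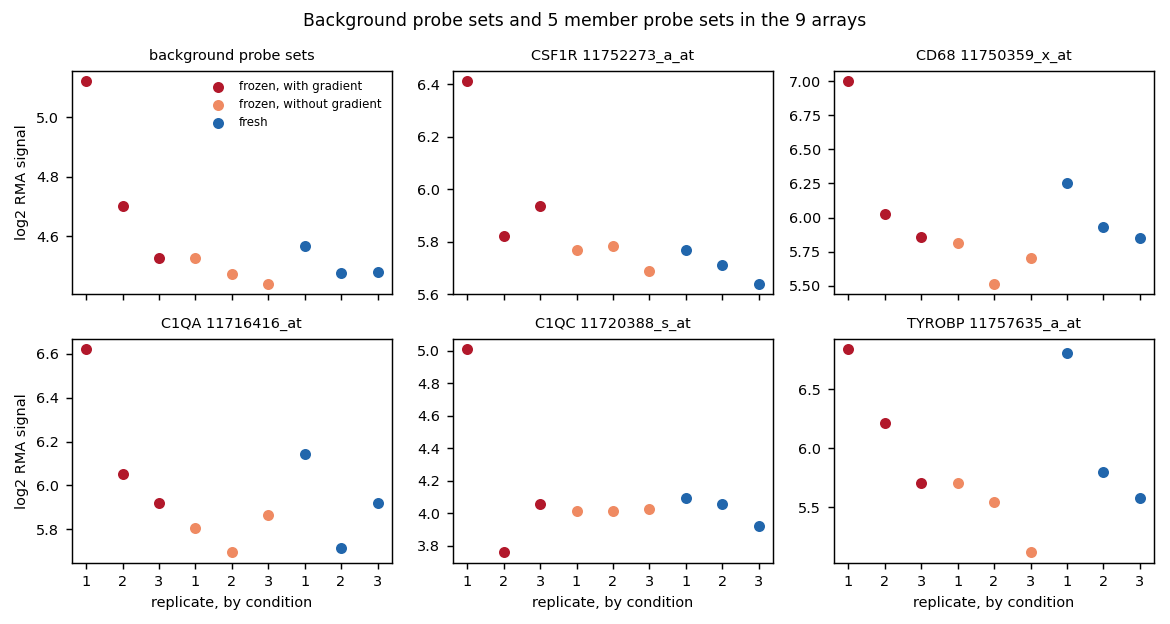
Log2 RMA signal (vertical axis) of the mean of the background probe sets and of 5 member probe sets in the 9 arrays, ordered by condition and replicate (horizontal axis). For CSF1R, CD68, C1QA, C1QC and TYROBP the probe set with the widest range is shown. These and the background probe sets have their highest value in replicate 1 frozen with gradient, where the background mean was 5.12. Of the probe sets not shown, those of LYZ, CD163 and CYBA, C1QB 11719465_a_at, TYROBP 11723287_at and CSF1R 11749817_a_at were highest in other arrays. Those of CD14, CSF1R 11716993_a_at, CD68 11729741_x_at and C1QB 11719466_s_at were highest in this array.

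The members were also counted beside all probe sets. Frozen without gradient against fresh, 1 of 17 fell and 0 rose, where 0.144% of all probe sets fell, 1.38% rose and 1.52% passed in either direction. Their median log2 fold change was -0.14, against -0.06 over all probe sets. The arrays without gradient all lay below the fresh ones for 5 of 17 and above them for 0, where 13.4% and 9.77% of all probe sets did so. Frozen with gradient against fresh, 0 of 17 passed, where 0.0467% of all probe sets did (0.02% higher and 0.0267% lower), and the median was 0.20 against 0.01. Conditions did not overlap for 2 of 17, 1 in each direction, where 7.75% of all probe sets did not overlap (4% higher and 3.75% lower).

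Frozen with against without gradient, 0 of 17 passed, where 2.72% of all probe sets did, 2.66% lower and 0.0622% higher. The median of the members was 0.31, against 0.10 over all probe sets. The arrays with gradient all lay above those without for 6 of 17 members and below them for 1, CYBA, where 17.3% and 13.1% of all probe sets did so (30.4% in either direction). The 6 were both probe sets of CD68 and of C1QB, C1QA, and CSF1R 11752273_a_at.

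**Figure D4:**
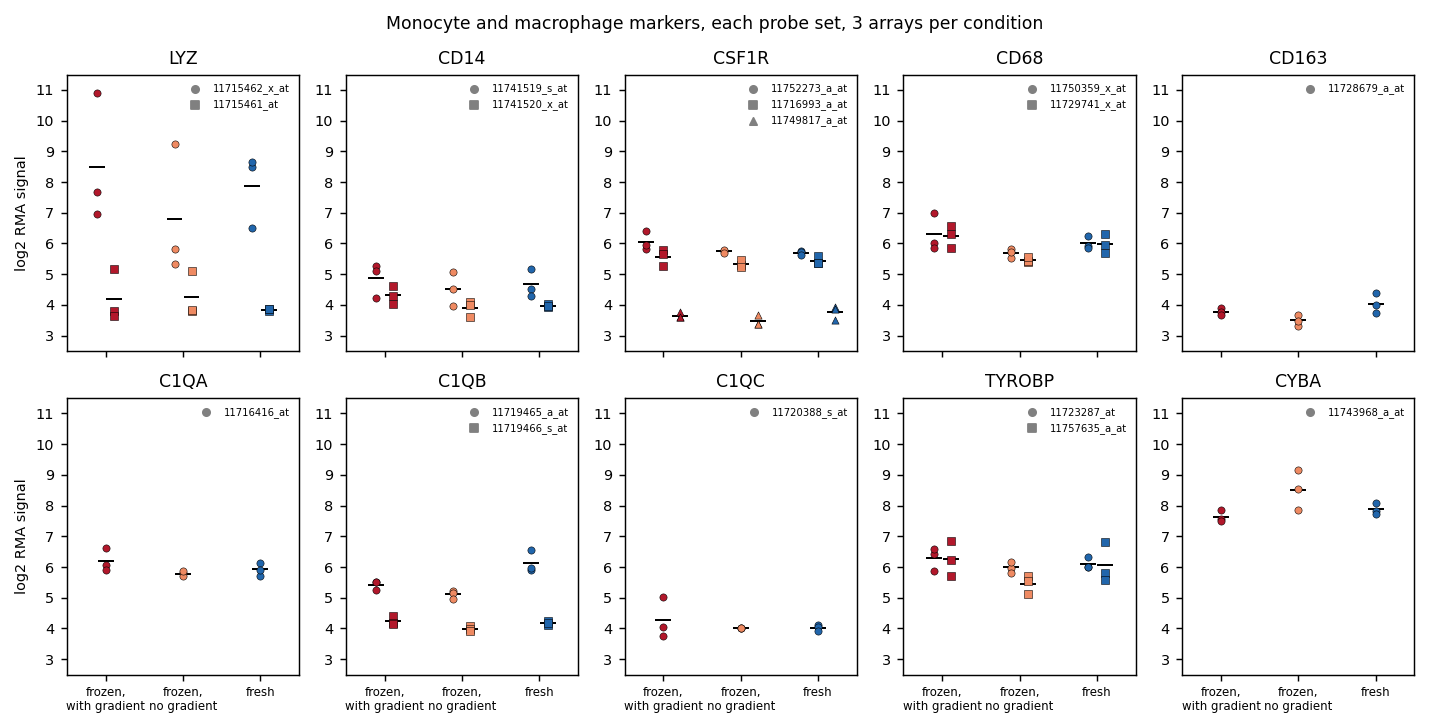
Log2 RMA signal (vertical axis) of every probe set of the 10 members in arrays frozen with gradient, frozen without gradient and fresh (horizontal axis), with a point for each array, a symbol for each probe set and a bar at the mean of 3 arrays. LYZ 11715462_x_at spreads from 5.34 to 10.89, C1QB 11719465_a_at is highest in the fresh arrays, and CYBA is highest without gradient.

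**Figure D5:**
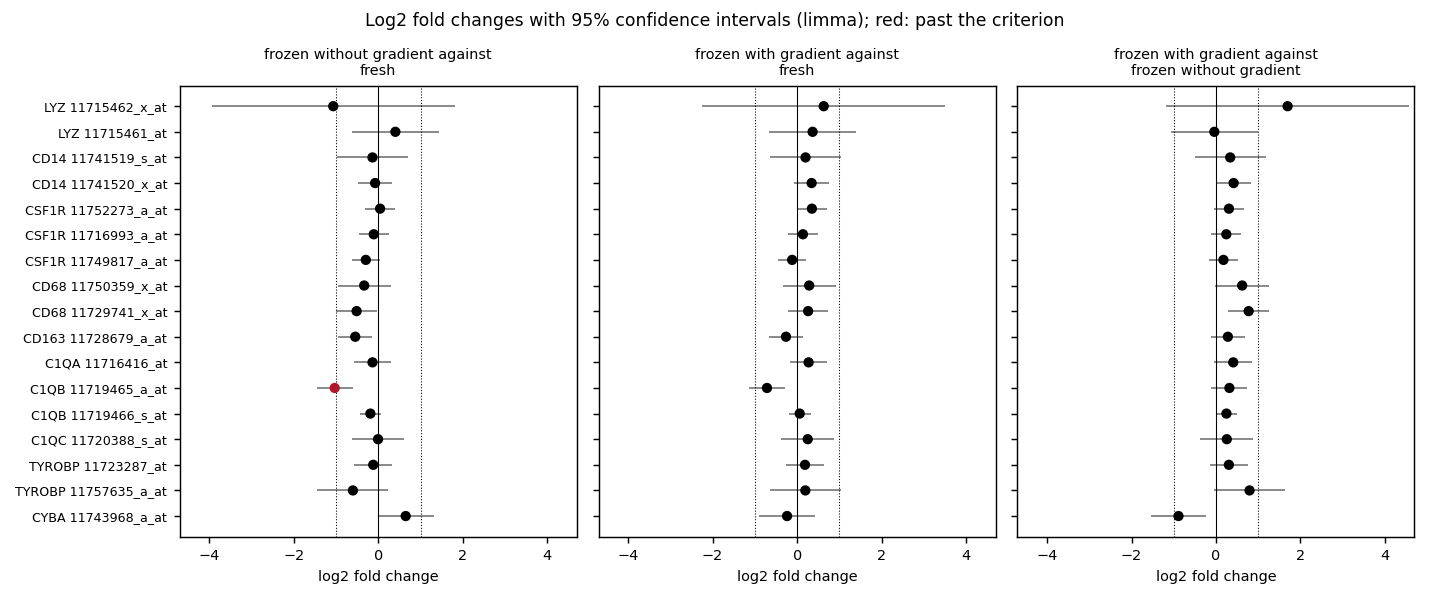
Log2 fold changes (horizontal axis) of the 17 member probe sets (vertical axis) in the 3 comparisons, as points with 95% confidence intervals from limma. Dotted lines mark a log2 fold change of 1 in either direction. C1QB 11719465_a_at, frozen without gradient against fresh, at -1.03, is the only probe set past the criterion.

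Other genes of monocytes and of the pathways around the members mostly did not pass. Of 100 probe sets of 27 other monocyte and macrophage genes, 1 rose frozen without gradient against fresh and 1 fell with against without gradient, both the same probe set of VCAN, a matrix proteoglycan, with log2 fold changes of 1.67 and -1.58. None passed with gradient against fresh. Over all probe sets 1.38% rose frozen without gradient against fresh, 2.66% fell with against without gradient, and 0.0467% passed with gradient against fresh. By these shares few probe sets would pass in lists of these sizes, so low counts say little about these genes. Of 18 probe sets of the partners of CD14, such as TLR4 and LY96, of 5 of the CSF1R ligands CSF1 and IL34, of 17 of early complement, such as C1R and C1S, of 24 of the receptors and kinases around TYROBP, such as TREM1 and SYK, and of 22 of heme handling, such as HMOX1, 0 passed in any comparison. Of 23 probe sets of lysosomal proteins, 1 of LAMP2 fell with against without gradient (-1.16). Of 20 of the NADPH oxidase, the 2 of RAC1 named above fell.

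Markers of other marrow cells gave the setting of these values. PTPRC, the CD45 antigen of all leukocytes, had 6 probe sets that ranged from 2.65 to 5.09, the highest of these values in fresh replicate 1. Of 21 probe sets of 8 leukocyte genes, 1 of CORO1A, an actin-binding protein, rose without gradient against fresh (1.22) and fell with against without gradient (-1.14). In the same comparisons 0 of 31 probe sets of T and natural killer cells, 0 of 35 of B and plasma cells and 0 of 17 of platelets passed, where 1.52% and 2.72% of all probe sets did. With the replicate number as a block, with against without gradient, 2 of 17 platelet probe sets rose, of the chemokine genes PF4 (1.0) and PPBP (1.69), as did 2 of 27 of granulocytes, S100A12 (1.36) and S100A8 (1.89), and 1 of 17 erythroid ones, HBB (1.88). Of 43 of MHC class II and dendritic cells, 3 rose with against without gradient, 2 of CD74, the invariant chain, with 1.06 and 1.02, and 1 of HLA-DPA1, a class II chain of antigen-presenting cells, with 1.14. With the block 5 rose, the others being 2 of HLA-DRA (1.1 and 1.51). Over all probe sets 0.0622% rose in this comparison, and 0.0889% with the block. This class II list averaged 4.31 to 4.94 in the arrays frozen with gradient, 4.13 to 4.39 in those frozen without gradient and 4.38 to 4.56 in the fresh arrays. Its part in the values of LYZ, CD68 and TYROBP was not tested.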

How the data were processed

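LAN-1 RNA from spiked and GD2-enriched marrow samples was hybridized to 9 Affymetrix PrimeView arrays, 1 per sample. Per the labels, the authors deposited log2 values that robust multi-array averaging (RMA) gives for each probe set, which corrects background, normalizes by quantiles and summarizes probes. The version of RMA is not given in the sources used here. The log2 values were used as deposited. Scanner intensities were not used here.

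Groups and replicate numbers were taken from the sample titles. Gene symbols came from the platform annotation. Of 49395 probe sets, 102 controls, 1832 with several symbols and 2473 with none were left out, and 44988 of 18132 genes were tested together. Condition means over 9 arrays were fitted with limma 3.58.1 in R 4.3.3, with Benjamini-Hochberg adjustment over all probe sets, after a test on simulated data. The criterion was an unadjusted p under 0.05 with a log2 fold change over 1 in size.

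The genes and lists were chosen with earlier results of these data known. Every member probe set is accounted for. Each member's brightest probe set and every member probe set past the criterion are given array by array, as are some others, chosen after their values were seen. Of other lists, counts and up to 4 genes are given. Likeness was ranked by Pearson r over the 9 arrays among the most variable probe sets with a log2 signal of at least 6 in 1 array.

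Deviations from the condition means of arrays with the same number correlated at 0.38, 0.18 and 0.46 for frozen with against without gradient. There the numbers were taken to pair the arrays, although no label says that a number marks a shared marrow. This was judged by the lowest correlation of each comparison. The block itself was a single term fitted over the arrays of all conditions, so its standard errors also rest on the numbers of the fresh arrays. The alternatives were 1 probe set per gene, cyclic loess, median centring, a filter at a mean log2 of 5, an intensity trend with robust estimation, the replicate block, the 3' minus 5' difference of GAPDH as a covariate, only the arrays compared, and leaving out each array. The background probe sets as a covariate and the block without 1 number were added after the data were seen.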

Additional observations from a re-analysis of the deposited data

Results flagged for a closer look

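The array quality values lie outside the comparisons of the markers. The mean log2 signal of the background probe sets was 5.122 in replicate 1 and 4.703 in replicate 2 frozen with gradient, both above every fresh array (4.48 to 4.57). The GAPDH 3' minus 5' difference was 6.73 in replicate 1 frozen with gradient, also above every fresh array (1.56 to 4.92).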

How the results depend on the processing

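Frozen without gradient against fresh, the count of member probe sets past the criterion was 1 (C1QB) and 0 after cyclic loess, and 0 to 1 when an array was left out, with 0 without replicate 3 frozen without gradient or fresh replicate 3. Frozen with gradient against fresh, it was 0 under every alternative except the block without the arrays of 1 number, given below. Frozen with against without gradient, it was 0, and 1 with the replicate block (LYZ), and 0 to 1 when an array was left out: 1 without replicate 3 frozen with gradient (TYROBP), without replicate 2 frozen without gradient (LYZ) and without replicate 3 frozen without gradient (CYBA). The block changed no other call of a member. With the block and without number 1, LYZ 11715462_x_at also passed with gradient against fresh (1.71), and without number 2 it passed without gradient against fresh (-1.90). Without number 3, C1QB did not pass without gradient against fresh (-0.74), while CD68 11729741_x_at (1.02) and CYBA (-1.15) passed with against without gradient. Against fresh arrays, same-numbered arrays deviated with correlations of 0.39, 0.06 and 0.50 without gradient and 0.70, 0.03 and 0.76 with gradient. The low values were those of replicate 2, and there the numbers were not taken to pair the arrays. The block includes the fresh arrays all the same, so every blocked result also rests on their numbers. Of 9 arrays, 7 correlated best with an array of their own number. Whether same-numbered arrays share a marrow is not known for any condition. In the 3 comparisons, 286, 284 and 290 of 302 alternative log2 fold changes of the members kept their sign, and those that changed it were not past the criterion.

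Over all probe sets, 686 passed without gradient against fresh, 448 and 113 with the most variable and the brightest probe set per gene, 1092 with the block, 289 with the GAPDH difference as a covariate (56 higher and 233 lower) and 129 to 2231 with an array left out. With gradient against fresh, 21 passed, 16 and 12 with the most variable and the brightest probe set per gene, 36 with the block, 561 with the background covariate and 16 to 266 with an array left out. With against without gradient, 1224 passed, 788 and 201 with the most variable and the brightest probe set, 1941 with the block, 120 with the GAPDH difference, 184 with the background covariate (98 higher and 86 lower) and 314 to 3140 with an array left out. The cause of these shifts was not tested. Counts with and without gradient rest on the titles of the frozen arrays, whose assignment could not be checked. Against fresh, the study reports the opposite order, with more genes altered with the additional gradient than without it. The mean log2 was under 5 for 7 of 17 member probe sets, and such probe sets can hide a change.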
